A study of Mus musculus with 12 samples.

Results

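The tRNAs that read the 4-codon box of arginine carry the anticodons ACG, CCG or TCG (written as DNA). They were taken as all deposited entries whose names begin with tRNA-Arg-ACG, tRNA-Arg-CCG or tRNA-Arg-TCG, and entries with identical values in all 12 libraries were counted once. This gave 14 of 404 entries and 10 of 213 distinct tRNAs, of which 3 have the anticodon ACG, 3 CCG and 4 TCG. The samples were small RNA of hematopoietic stem and progenitor cells from old and young mice, all wild type, with no age in months in the labels. At each age 3 libraries were treated with CMC in BEU buffer and 3 were kept in BEU buffer without CMC, so the groups were old CMC, old BEU, young CMC and young BEU. All RNA, in every group, had first been demethylated with wild-type and D135S mutant AlkB. The tables hold tRNA alone, so the cell type could not be checked against marker genes, and the labels do not say whether libraries of 1 group came from separate animals. The p-values therefore rest on how far these libraries differ from each other, and that may be technical variation. The series title names pseudouridine synthase 10, PUS10, as induced by aging, and the design compared tRNA pseudouridylation between the ages.

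Pseudouridine is an isomer of uridine that synthases make in place, without cutting the RNA chain. In mammalian tRNA, PUS1 is known to act at positions 27 and 28, PUS3 at 38 and 39, TRUB1 and PUS10 at 55, and PUS10 at 54, where many other tRNAs carry a methylated uridine instead. CMC is a carbodiimide that stays attached to pseudouridine after alkaline treatment and halts reverse transcriptase. The stop rate of a base is 100 times the stop reads counted at it over its coverage. A stop read is taken here to begin just 3′ of the base, a rule that the sources used here do not state. The rise of a base is the CMC value minus the BEU value in percentage points, taken within the pair of libraries that share an age and a replicate number. Reverse transcription starts at the 3′ end, so in principle a stop at one base is counted only among reads that got past the bases 3′ of it. Coverage did not always follow this order. In ACG-2-1 it was at least 50 reads at base 27 in all 12 libraries, but fell below 20 at base 50. Some reads counted at base 27 were therefore not counted at base 50.

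All 10 tRNAs are 75 bases long. The 7 sequences below show how close the family members are and where CMC stops fell. They are the deposited letters, 5′ to 3′, and capitals mark the bases where the rise was called in old or young cells.
tRNA-Arg-ACG-1-1: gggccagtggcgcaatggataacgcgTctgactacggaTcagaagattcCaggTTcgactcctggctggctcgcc
tRNA-Arg-ACG-2-1: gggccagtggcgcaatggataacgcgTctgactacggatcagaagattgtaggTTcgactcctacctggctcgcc
tRNA-Arg-ACG-3-1: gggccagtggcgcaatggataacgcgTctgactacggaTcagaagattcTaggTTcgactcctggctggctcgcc
tRNA-Arg-CCG-1-1: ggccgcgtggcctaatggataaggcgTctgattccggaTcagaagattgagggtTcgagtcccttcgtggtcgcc
tRNA-Arg-CCG-3-1: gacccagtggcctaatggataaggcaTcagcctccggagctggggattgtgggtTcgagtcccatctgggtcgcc
tRNA-Arg-TCG-1-1: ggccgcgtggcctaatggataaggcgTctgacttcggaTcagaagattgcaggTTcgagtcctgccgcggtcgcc
tRNA-Arg-TCG-4-1: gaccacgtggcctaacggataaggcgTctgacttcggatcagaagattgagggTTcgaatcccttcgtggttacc

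Several of them are nearly the same molecule, which matters for the short reads that a stop leaves behind. With positions counted from 1 at the 5′ end, ACG-1-1 and ACG-3-1 differ by 1 base, C50T (the first named tRNA's base first), and CCG-1-1 and CCG-2-1 by 1 base, A50G. TCG-3-1 and TCG-4-1 differ by T16C and G73A. A read that begins just 3′ of position 54 or 55 holds one of only 7 distinct stretches of letters over the 10 tRNAs. ACG-1-1 and ACG-3-1 share one of these, and CCG-1-1, CCG-2-1 and TCG-2-1 share another, so their values there are not independent of each other. The sources used here do not say how reads were divided between such entries.

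Highest coverage, summed over the 10 tRNAs, was 6834 to 16683 reads in the old CMC libraries, 21676 to 52529 in old BEU, 7192 to 30604 in young CMC and 33301 to 49606 in young BEU. Coverage in the tables never exceeded 8015, and stops 3′ of the point where a tRNA neared that ceiling (7500 reads) were few. In BEU libraries the ceiling was reached by ACG-1-1, ACG-3-1 and CCG-3-1, and among CMC libraries by ACG-1-1 and ACG-3-1 in young replicate 2. Sites were tested where coverage was at least 20 in all 12 libraries, which left 145 of 170 T bases and 595 of 750 bases of the 10 tRNAs. In the TCG tRNAs, CCG-1-1 and CCG-2-1 the first base tested lay between 20 and 27.

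CMC raised the stop rate at the positions known for pseudouridine in the anticodon stem and the T loop, and at 1 further T. A rise was called with an adjusted p under 0.05 in edgeR's quasi-likelihood test (Benjamini-Hochberg over all T sites of all tRNAs), an average rise of 10 points or more, and CMC above BEU in each of the 3 pairs. Among T sites of the 10 tRNAs, 32 were called in old cells and 31 in young cells, of 145 each. Over all tRNAs 20.3% of T sites were called in old cells and 18.8% in young cells, so the overall shares of this family were near the background. The 31 sites called in young cells were all called in old cells too. Position 27 was called in 10 of 10 tRNAs at both ages, position 55 in 10 of 10 at both ages, and position 39 in 6 of the 9 tRNAs with a T there at both ages. Position 54 was called in 5 of 10 in old cells and 4 of 10 in young cells. Over all tRNAs, tested T were called at position 55 in 136 of 162 in old and 128 of 162 in young cells, at 38 and 39 in 78 of 93 in old and 77 of 93 in young cells, and at 54 in 43 of 147 in old and 37 of 147 in young cells. No rise was called at position 13, where the family has 1 tested T, or at position 32, where it has 2. Over all tRNAs 18 of 25 at position 13 and 7 of 29 at position 32 were called in old cells, and 17 and 6 in young cells.

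**Figure D1:**
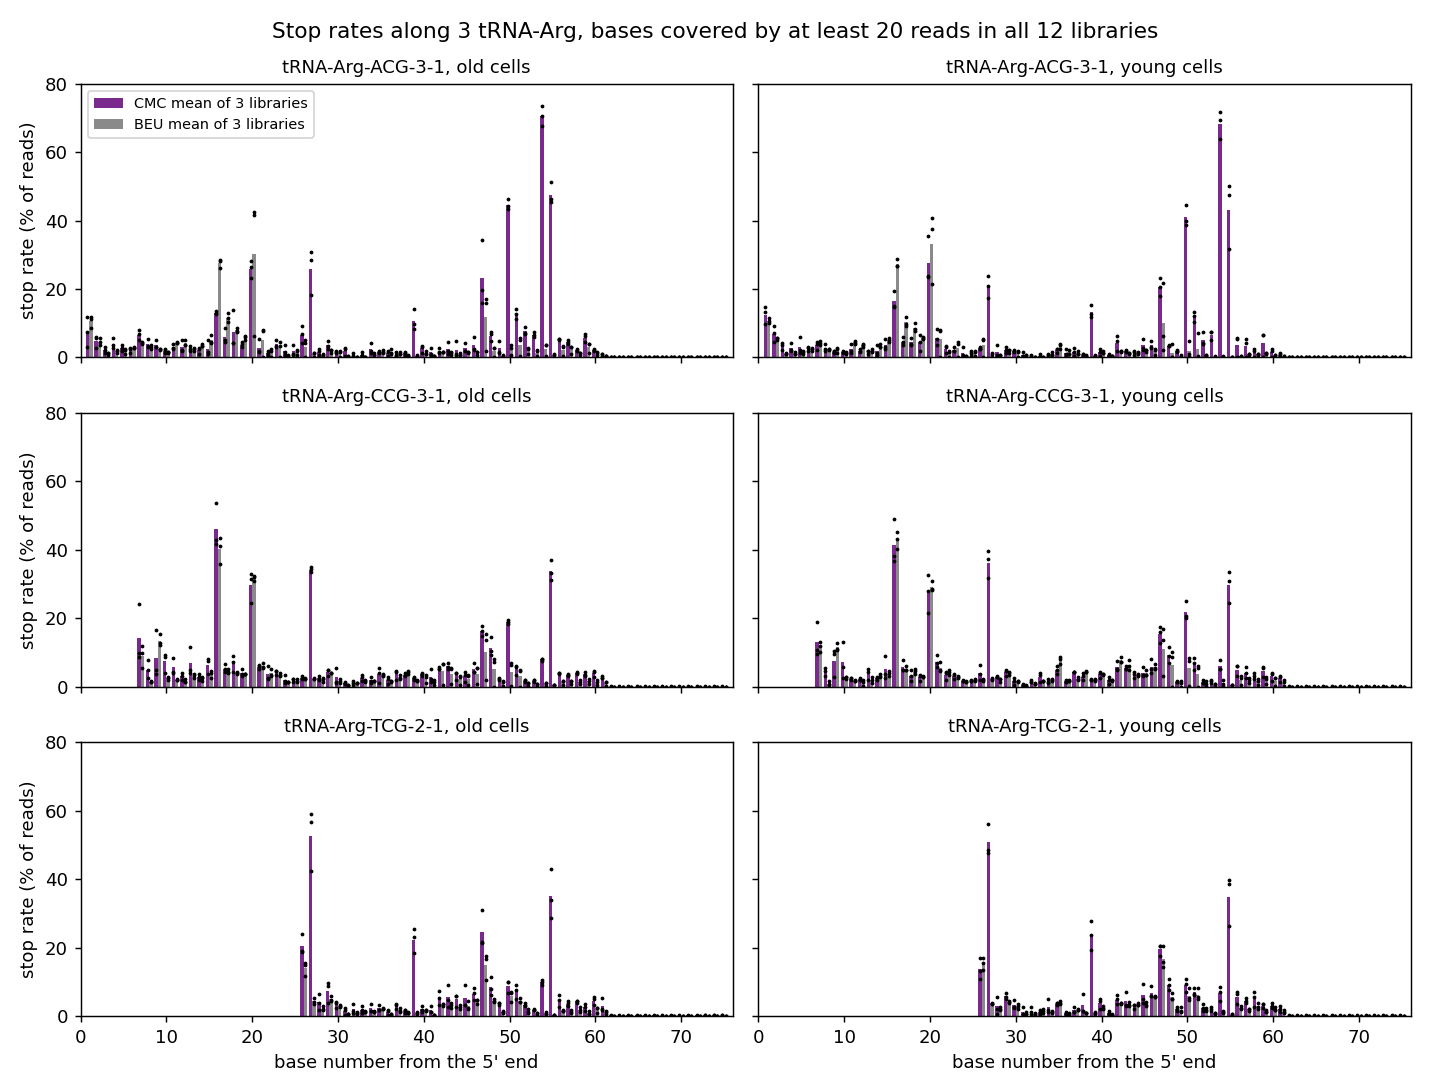
Stop rate in percent of reads (vertical axis) along the bases of ACG-3-1, CCG-3-1 and TCG-2-1 (horizontal axis, base number from the 5′ end), in old cells on the left and young cells on the right. Bars are means of 3 libraries, purple with CMC and grey in BEU buffer, dots are single libraries, and bases not tested have no bar. Tall purple bars with little grey beside them stand at 27 and 55, in TCG-2-1 also at 39, and in ACG-3-1 also at 50 and 54. At 39 the purple bar of ACG-3-1 is lower, with single libraries at 8.31 to 15.3%, and CCG-3-1 has no such bar. In CCG-3-1 a purple bar also stands at 50, with single libraries at 18.4 to 25.1%, beside grey means of 4.44% in old and 5.35% in young cells.

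At position 54 the 3 ACG tRNAs stopped far more than the rest of the family. In ACG-1-1 the stop rate at T54 was 63.4, 66.1 and 60.5% in old CMC libraries, against 0.276, 4.27 and 4.04% in old BEU libraries. In young cells it was 66.6, 57.6 and 63.4% with CMC, against 0.289, 5.31 and 0.389% in BEU. CMC and BEU values did not overlap at either age. Old BEU replicate 1 and all 3 young BEU libraries were at the coverage ceiling at this base. The rise was 60.5 ± 3.51 points in old and 60.5 ± 7.36 points in young cells (SD, n = 3 pairs each), with edgeR adjusted p of 0.0016 and 0.0008.

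ACG-3-1 rose most at this base, by 68.0 ± 3.47 points in old and 68.1 ± 4.01 points in young cells (SD, n = 3 pairs each). The same BEU libraries as for ACG-1-1 were at the coverage ceiling there. ACG-2-1, which never reached the ceiling and has its own letters 3′ of 54, had 49.2, 64.5 and 52.6% with CMC in old cells, against 0.785, 0.238 and 0.906% in BEU. With CMC in young cells it had 53.7, 47.1 and 50.0%, against 1.22, 1.85 and 1.18% in BEU. Again the CMC values stood far above the BEU values in every pair. Among all 147 tested T54 sites ordered by rise, ACG-3-1, ACG-1-1 and ACG-2-1 came 4th, 5th and 11th, at both ages.

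TCG-1-1 lay between the ACG tRNAs and the rest. Its T54 stopped 20.2, 24.8 and 25.0% of reads in old CMC libraries, against 0.627, 1.05 and 1.13% in old BEU. The young libraries gave 27.01, 18.0 and 27.5% with CMC, against 0.823, 1.45 and 1.06% in BEU. The rises of 22.4 ± 2.42 points in old and 23.1 ± 5.61 points in young cells (SD, n = 3 pairs each) were called at both ages.

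The other TCG tRNAs and the 3 CCG tRNAs stopped far less often at T54. Their mean rises were 7.19 to 9.85 points (CCG) and 7.86 to 10.1 points (TCG-2-1, TCG-3-1 and TCG-4-1) in old cells. In young cells they were 5.06 to 5.74 points (CCG) and 5.52 to 9.47 points (the same TCG tRNAs). All had an adjusted p under 0.05 at both ages, and 1 mean rise passed the 10-point minimum. That was TCG-4-1 in old cells, with 3.64, 17.6 and 9.46% in the CMC libraries, against 0.146, 0.131 and 0.302% in BEU. Old replicate 2 carried this call: without it the rise was 6.32 points. Coverage of TCG-4-1 in old CMC replicate 2 reached only 50 reads at its highest. In young cells TCG-4-1 rose by 9.47 ± 2.79 points, just under the minimum.

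The base letters around T54 also differ between members; they were picked after the values were known and are given as a description. The 7-base T loop (positions 54 to 60) reads TTCGACT in the 3 ACG tRNAs, TTCGAGT in the CCG tRNAs and in TCG-1-1 and TCG-2-1, and TTCGAAT in TCG-3-1 and TCG-4-1. TTCGACT occurs at 6 of the 147 T54 sites (4.08%), and the 3 called ones are the ACG tRNAs. The other 3, in tRNA-Glu-TTC-1-1, tRNA-Glu-TTC-2-1 and tRNA-Tyr-GTA-4-1, rose by 6.30 to 8.13 points in old cells and by 4.68 to 6.81 points in young cells. Position 51 is A in the 3 ACG tRNAs and TCG-1-1 and G in the other 6 members. A51 occurs at 11 of the T54 sites, of which 5 were called at both ages. The 3 ACG tRNAs and TCG-1-1 make up 4 of these 5. G51 occurs at 100 sites, of which 34 were called in old and 27 in young cells.

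At position 55, the most widely pseudouridylated base of tRNA, every member stopped with CMC and hardly without it. ACG-2-1 had 41.7, 53.7 and 45.4% in old CMC libraries, against 0.132, 0.240 and 0.303% in old BEU. In young cells it had 38.1, 40.5 and 48.8% with CMC, against 0.224, 0.186 and 0.352% in BEU. TCG-3-1 and TCG-4-1 had the lowest rises, and TCG-4-1 had 21.7, 21.4 and 20.7% with CMC in old cells, against 0.204, 0.263 and 0.452% in BEU. In young cells TCG-4-1 had 23.1, 12.3 and 18.4% with CMC, against 0.138, 0.211 and 0.309% in BEU. No CMC value of any member overlapped its BEU values. Mean rises were 44.3 to 46.99 points in old and 39.2 to 42.9 points in young cells for the ACG tRNAs. The CCG tRNAs rose by 33.3 to 36.9 points in old and 29.2 to 35.7 points in young cells, and the TCG tRNAs by 20.97 to 34.9 points in old and 17.6 to 34.4 points in young cells.

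Counted over the reads that reached each base, the mean rise of the ACG tRNAs was larger at T54 than at T55, and that of the CCG and TCG tRNAs was larger at T55. With T55 the ACG tRNAs stood in the middle of all tRNAs, at places 51 to 65 of 162 in old cells and 56 to 69 in young cells. Young replicate 2 gave the lowest young rise in 10 of 10 tRNAs at T54 and in 9 of 10 at T55. In ACG-1-1 the T55 stop rate was 24.5% in young CMC replicate 2, the CMC library at the ceiling, against 45.7 and 47.9% in replicates 1 and 3. The part of the ceiling in this value was not tested.

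**Figure D2:**
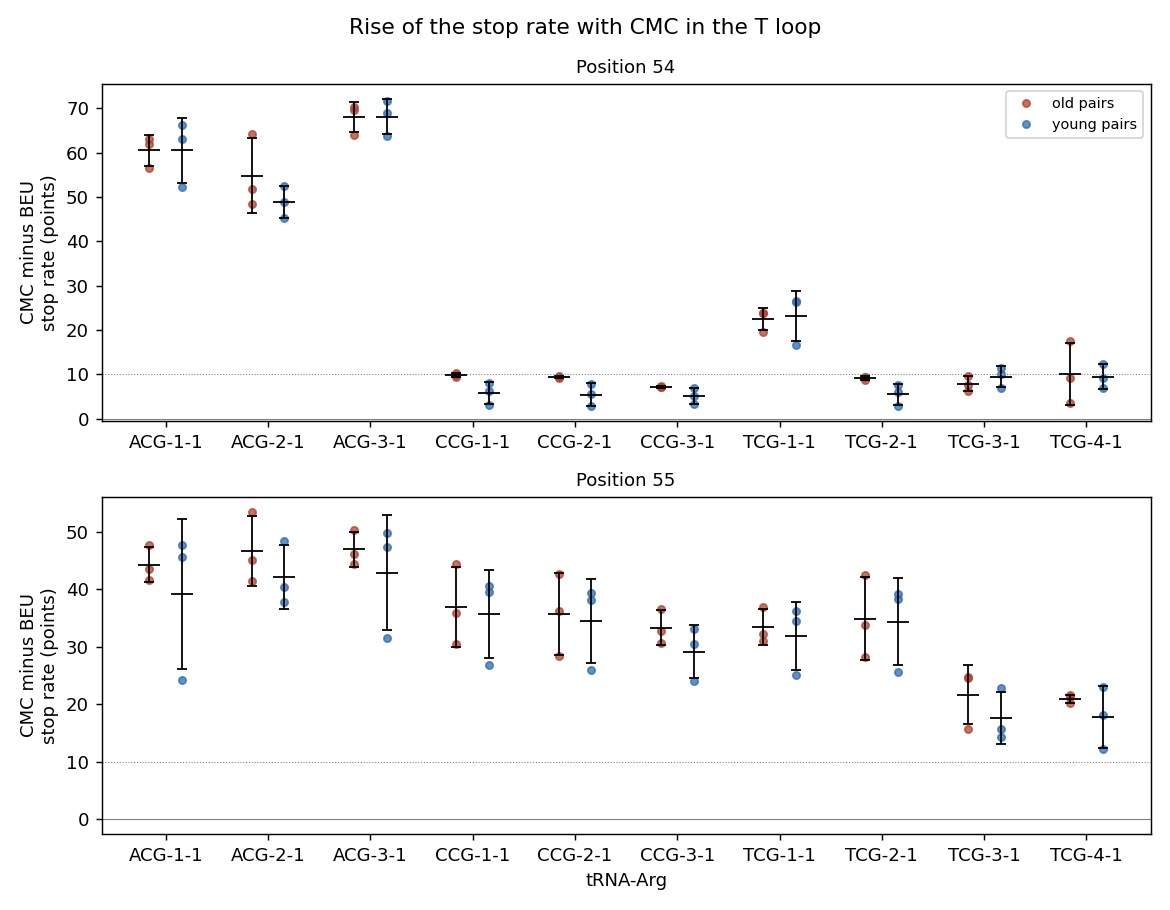
Rise of the stop rate, CMC minus BEU in percentage points (vertical axis), at positions 54 (top) and 55 (bottom) of the 10 tRNAs, old pairs in red left of young pairs in blue. Points are the 3 pairs of an age, black bars are the mean with its SD, and the dotted line is the 10-point minimum. At position 54 the 3 ACG tRNAs stand at 48.8 to 68.1 points and TCG-1-1 near 23, with the rest near or below the dotted line, while at position 55 all 10 lie above it.

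The tRNA-Arg with the anticodons CCT and TCT, which read the other arginine codons, also differed at T54 by anticodon. At T54, 7 of the 9 distinct tRNAs with these anticodons were tested. The 3 TCT tRNAs among them rose by 15.8 to 33.5 points in old and 16.1 to 25.6 points in young cells and were called at both ages. The 4 CCT tRNAs tested rose by 3.18 to 5.48 points in old and 3.78 to 5.31 points in young cells and were not called. At T55, 7 of these 7 were called in old cells and 6 in young cells.

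In the anticodon stem, T27 stopped with CMC in every member and was strongest in the TCG tRNAs. TCG-3-1 had 56.7, 56.9 and 44.4% in old CMC libraries, against 3.36, 4.49 and 3.87% in old BEU. With CMC the young libraries gave 47.4, 49.4 and 51.4%, against 3.52, 3.72 and 3.73% in BEU. CMC and BEU values were far apart at both ages. Rises in the 4 TCG tRNAs were 46.0 to 48.7 points in old and 45.7 to 47.1 points in young cells, which is a narrow range for tRNAs whose T54 and T55 differ.

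The CCG tRNAs rose at T27 by 24.8 to 35.1 points in old and 28.5 to 35.5 points in young cells. The ACG tRNAs rose by 20.2 to 35.2 points in old and 15.6 to 26.5 points in young cells. Their letters 5′ of base 49 are the same, so a read confined to those bases cannot be assigned to a single ACG tRNA. ACG-2-1 had reads at base 27 that were not counted at base 50. The part of such reads in its values 5′ of base 49 was not tested. ACG-1-1 and ACG-3-1, which differ at base 50 alone, gave 35.2 ± 4.77 and 24.9 ± 7.02 points in old cells (SD, n = 3 pairs each). In young cells they gave 26.5 ± 5.36 and 19.9 ± 3.69 points. At T27 the mean rises of the TCG tRNAs lay above those of all ACG and CCG tRNAs, whereas at T54 and T55 those of the ACG tRNAs lay above all others, at both ages. Over all tRNAs 82 of 128 tested T at positions 27 and 28 were called in old cells and 87 in young cells.

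Position 39 varied among members of the same anticodon. In CCG-1-1 the stop rate was 48.8, 27.3 and 40.7% in old CMC libraries, against 1.68, 2.38 and 1.31% in old BEU. The young libraries gave 34.3, 44.4 and 37.5% with CMC, against 1.91, 1.63 and 1.17% in BEU. CCG-2-1 was similar, with rises of 31.1 ± 1.96 points in old and 37.0 ± 5.75 points in young cells (SD, n = 3 pairs each). CCG-3-1 has G at base 39, and its rise there was 0.72 ± 0.426 points in old and 0.0403 ± 0.528 points in young cells.

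TCG-1-1 and TCG-2-1 rose at T39 by 22.5 ± 1.26 and 21.3 ± 3.83 points in old cells and by 20.5 ± 1.93 and 22.7 ± 4.28 points in young cells (SD, n = 3 pairs each). TCG-3-1 and TCG-4-1 had less, 8.02 and 9.33 points in old and 8.75 and 9.92 points in young cells, under the 10-point minimum although their adjusted p was below 0.05. ACG-1-1 rose by 15.2 ± 5.88 points in old and 13.5 ± 2.49 points in young cells and was called at both ages. ACG-3-1 rose by 10.3 ± 3.13 points in old and 12.8 ± 1.76 points in young cells and was also called. For ACG-3-1 in old cells the rise was 8.52 points without old replicate 2, which is under the minimum. ACG-2-1 rose by 4.18 ± 1.99 points in old and 3.33 ± 2.203 points in young cells and was not called. The limit given for ACG-2-1 at T27, on reads that cannot be assigned to a single ACG tRNA, holds here too. T39 thus spanned 3.33 to 37.2 points in a family whose T27 spanned 15.6 to 48.7 points.

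**Figure D3:**
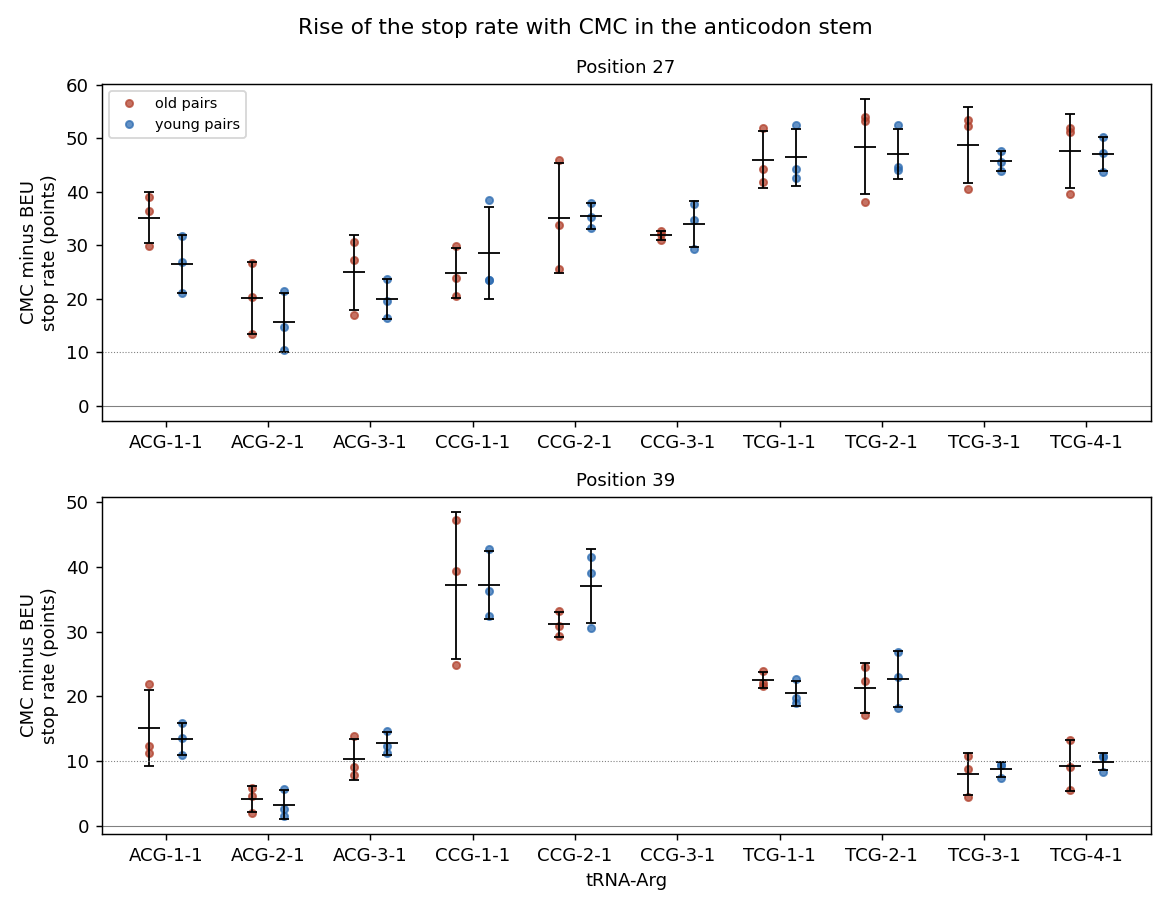
Rise of the stop rate, CMC minus BEU in percentage points (vertical axis), at positions 27 (top) and 39 (bottom) of the 10 tRNAs, old pairs in red left of young pairs in blue. Points are pairs, black bars the mean with its SD, the dotted line the 10-point minimum, and CCG-3-1 is left out at position 39, where its base is G. The 4 TCG tRNAs stand highest at position 27, and CCG-1-1 and CCG-2-1 stand highest at position 39.

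At the anticodon itself CMC raised no stop. Bases 34 to 36 and the neighbouring base 37 of the best-covered member of each anticodon, ACG-3-1, CCG-3-1 and TCG-2-1, had mean rises of -2.95 to 1.93 points and no call. Base 34 of ACG is encoded as A and is known to be deaminated to inosine in the mature tRNA. In ACG-3-1 it rose by 1.62 ± 1.82 points in old cells and changed by -0.25 ± 0.452 points in young cells (SD, n = 3 pairs each).

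Base 50, in the T stem, held the further call and the only call outside T. In ACG-3-1, where base 50 is T, the stop rate was 44.2, 46.2 and 43.5% in old CMC libraries, against 0.567, 2.74 and 3.76% in old BEU. It was 44.6, 38.8 and 40% in young CMC libraries, against 0.440, 4.67 and 0.858% in young BEU. The rise of 42.3 ± 2.21 points in old and 39.2 ± 5.04 points in young cells (SD, n = 3 pairs each) was called at both ages, with adjusted p of 0.00054 and 0.00041. Old BEU replicate 1 and young BEU replicates 1 and 3 were at the coverage ceiling at base 50, here and in ACG-1-1. They gave the low BEU values of both tRNAs.

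ACG-1-1, with C at base 50, had 27.8, 29.7 and 29.4% in old CMC libraries, against 0.594, 3.27 and 4.23% in old BEU. In young cells it had 32.3, 27.8 and 28.6% with CMC, against 0.441, 5.58 and 0.885% in BEU. The values with CMC lay below those of ACG-3-1 in every pair, and far above BEU. C50 was 1 of 450 tested bases other than T in the family to be called, at both ages, with rises of 26.2 ± 1.02 points in old and 27.3 ± 4.82 points in young cells and adjusted p of 0.016 and 0.020. Over all tRNAs 0.61% of such bases were called in old cells and 0.368% in young cells.

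If stop reads begin just 3′ of the base, those at base 50 of ACG-1-1 and of ACG-3-1 hold the same letters. At base 54 the ratio of the coverages of these tRNAs, ACG-1-1 over ACG-3-1, was 0.862 to 1.12 over the 12 libraries. Under that rule, stops at C50 and T50 in these tRNAs cannot be told apart by the letters of the reads. The C50 call was lost when any old replicate was left out (in old cells), when young replicate 1 or 3 was left out (in young cells), and at both ages with the replicate number as a block, with rises of 25.0 to 27.3 points throughout. ACG-2-1, with T50 and its own 3′ letters, had rises of 19.6 points in old and 21.7 points in young cells but was not tested, since its coverage fell to 11 reads in 1 library. CCG-3-1, the other member with T50, rose by 14.5 ± 3.73 points in old and 16.6 ± 3.98 points in young cells with adjusted p of 0.17 and 0.20. Its CMC values, 18.4 to 19.5% in old and 20.2 to 25.1% in young cells, lay above all its BEU values. Those spread over 0.125 to 6.90% in old and 0.113 to 8.44% in young cells. Old BEU replicate 1 and young BEU replicate 3 were at the coverage ceiling at this base, and the part of the ceiling was not tested. The 6 members with another base at 50, leaving out ACG-1-1, rose by -0.35 to 3.04 points.

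**Figure D4:**
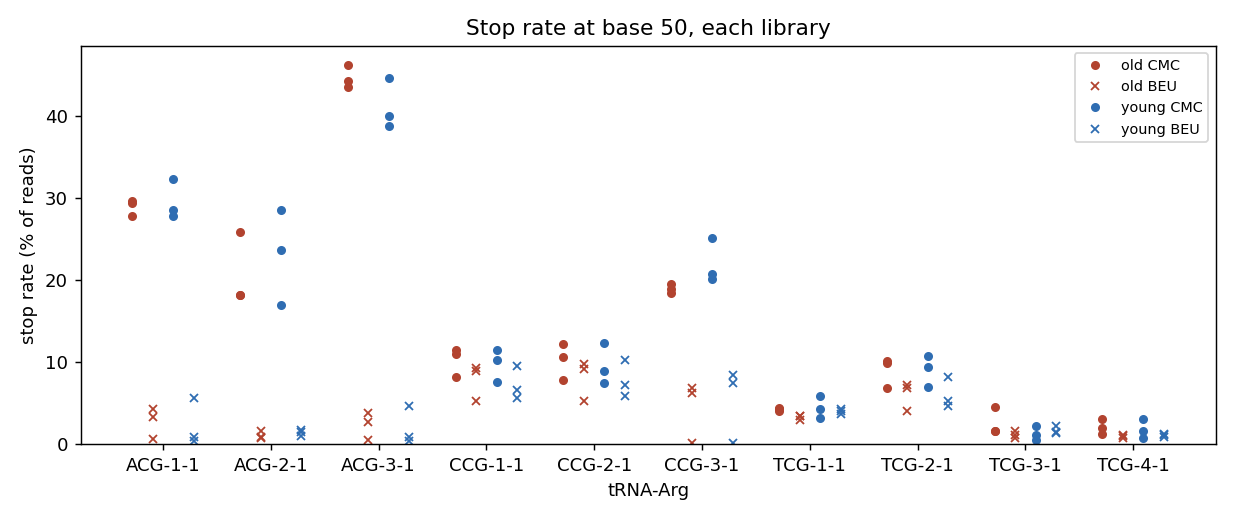
Stop rate at base 50 in percent of reads (vertical axis) in each library of the 10 tRNAs, with circles for CMC, crosses for BEU, red for old and blue for young. CMC circles of ACG-3-1 stand at 38.8 to 46.2%, those of ACG-1-1 at 27.8 to 32.3%, and the tRNAs without T at base 50, other than ACG-1-1, keep circles and crosses close together.

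No member site was called between the ages in the interaction test. It was run at the T sites that rose 10 points or more on average over the 6 pairs, 33 in this family, and 0 were called by edgeR's quasi-likelihood test (lowest adjusted p 0.909), against 0% of the 439 such sites of all tRNAs. At an unadjusted p under 0.05 there were 3 of 33 in the family and 22 of 439 in all. The rise was higher in old cells at 21 of the 33 and lower at 12, with a median difference of 1.26 points, old minus young, beside 1.39 points over all 439. Old and young pairs overlapped at all 33, whereas 13% of the 439 sites showed no overlap.

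The widest differences, old minus young, were at T27 of ACG-1-1 (8.63 ± 4.14 points, SE), T54 of ACG-2-1 (5.98 ± 5.25 points) and T55 of ACG-1-1 (5.12 ± 7.72 points) on the higher side. On the lower side they were at T39 of CCG-2-1 (-5.91 ± 3.51 points), T27 of CCG-1-1 (-3.71 ± 5.64 points) and T39 of ACG-3-1 (-2.45 ± 2.07 points). None was called by the interaction test. That test compares log odds between libraries without pairing them, whereas the SEs here are of the rises over pairs. The difference at T55 of ACG-1-1 was -2.37 points without young replicate 2, whose CMC library was at the coverage ceiling there. At T27 of CCG-1-1 the difference was 1.23 points without young replicate 3. Without old replicate 1, 1 of 34 member sites was called, T54 of ACG-3-1 with a difference of -1.22 points, beside 4 of 441 sites of all tRNAs. At this base old BEU replicate 1 and every young BEU library were at the coverage ceiling, so that leave-out kept only young BEU libraries at it. BEU stop rates there were 0.314, 3.66 and 3.68% in old and 0.175, 0.201 and 0.351% in young libraries, in rising order. The part of the ceiling in this call was not tested.

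At T54, 4 tRNAs had old rises above all young ones, and all 4 fell below the 10-point average that the age test required. CCG-1-1 had old CMC values of 10.2, 11.5 and 11.3%, against young CMC values of 7.76, 4.84 and 8.90%. CCG-3-1 had CMC values that overlapped, 7.68, 8.25 and 8.15% in old against 7.76, 5.14 and 5.29% in young libraries, and its rises were apart only in same-numbered pairs: over every combination of libraries the lowest old rise was 6.46 and the highest young rise 7.63 points. The others were CCG-2-1 and TCG-2-1, which share the letters 3′ of 54 with CCG-1-1. These 3 remained apart over every combination of libraries. Rises were 9.85 ± 0.482 points in old and 5.74 ± 2.49 points in young cells for CCG-1-1, and 7.19 ± 0.231 points in old and 5.06 ± 1.81 points in young cells for CCG-3-1 (SD, n = 3 pairs each). At T54 of CCG-3-1 old BEU replicate 1 and young BEU replicate 3 were at the coverage ceiling. The part of the ceiling in its rises was not tested. Over all tRNAs 13.6% of T54 sites had old rises above all young ones. Among the young pairs, replicate 2 was the lowest in each of these tRNAs.

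Some bases stopped reverse transcriptase without CMC. In BEU buffer T20 in the D loop, where dihydrouridine is common in tRNA, had the highest mean stop rate in 9 members, and T16 in CCG-3-1. T16 of CCG-3-1 stopped 40.3 ± 3.88% of reads in old BEU libraries and 42.9 ± 2.40% in young ones (SD, n = 3 each). Means over the 9 members with T16 were 18.4 to 44.2% in old and 18.6 to 43.5% in young cells. For T20 they were 27.01 to 50.2% in old and 26.1 to 50.8% in young cells, and for T47, in the variable loop, 6.31 to 20.3% in old and 7.81 to 21.2% in young cells.

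TCG-4-1 is the 1 member with C at base 16, yet its reads stopped there too, at rates near or above those of its near copy. It had 41.4, 35.3 and 49.7% in old BEU libraries and 50.6, 46.2 and 46.1% in young BEU libraries. TCG-3-1, with T16, had 41.1, 34.3 and 47.1% in old and 41.2, 39.7 and 40.1% in young BEU libraries. Beyond base 16 these tRNAs differ by G73A alone.

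The D-loop stops of ACG-1-1 were uneven between libraries. At T20 it had 7.03, 43.1 and 42.02% in old BEU libraries and 38.1, 40.9 and 22.4% in young BEU libraries. The low values came from old replicate 1 and young replicate 3, the BEU libraries in which its coverage was at the ceiling at this base. At T16, 5′ of the ceiling, the same tRNA had 26.3, 28.3 and 28.8% in old and 29.1, 26.6 and 27.1% in young BEU libraries.

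CMC lowered the stop rate at this T16. It fell to 12.8, 13.3 and 12.4% in old CMC libraries and to 14.7, 15.4 and 19.4% in young CMC libraries, and no CMC value reached the BEU values above. The changes of -14.9 ± 1.44 points in old and -11.1 ± 3.37 points in young cells (SD, n = 3 pairs each), and the near-equal ones in ACG-3-1, were the 2 called decreases among T sites of the family at each age. Over all tRNAs 0.685% of T sites were called lower at each age. T16 of ACG-2-1 was also lower with CMC in old cells, at 9.42 to 12.5% against 16.9 to 19.4% in BEU, but was not called. In young cells its values overlapped, at 12.6 to 19.0% with CMC against 17.9 to 19.4% in BEU. T16 of CCG-3-1, by comparison, changed by 5.83 ± 4.87 points in old and -1.53 ± 7.22 points in young cells and was not called.

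**Figure D5:**
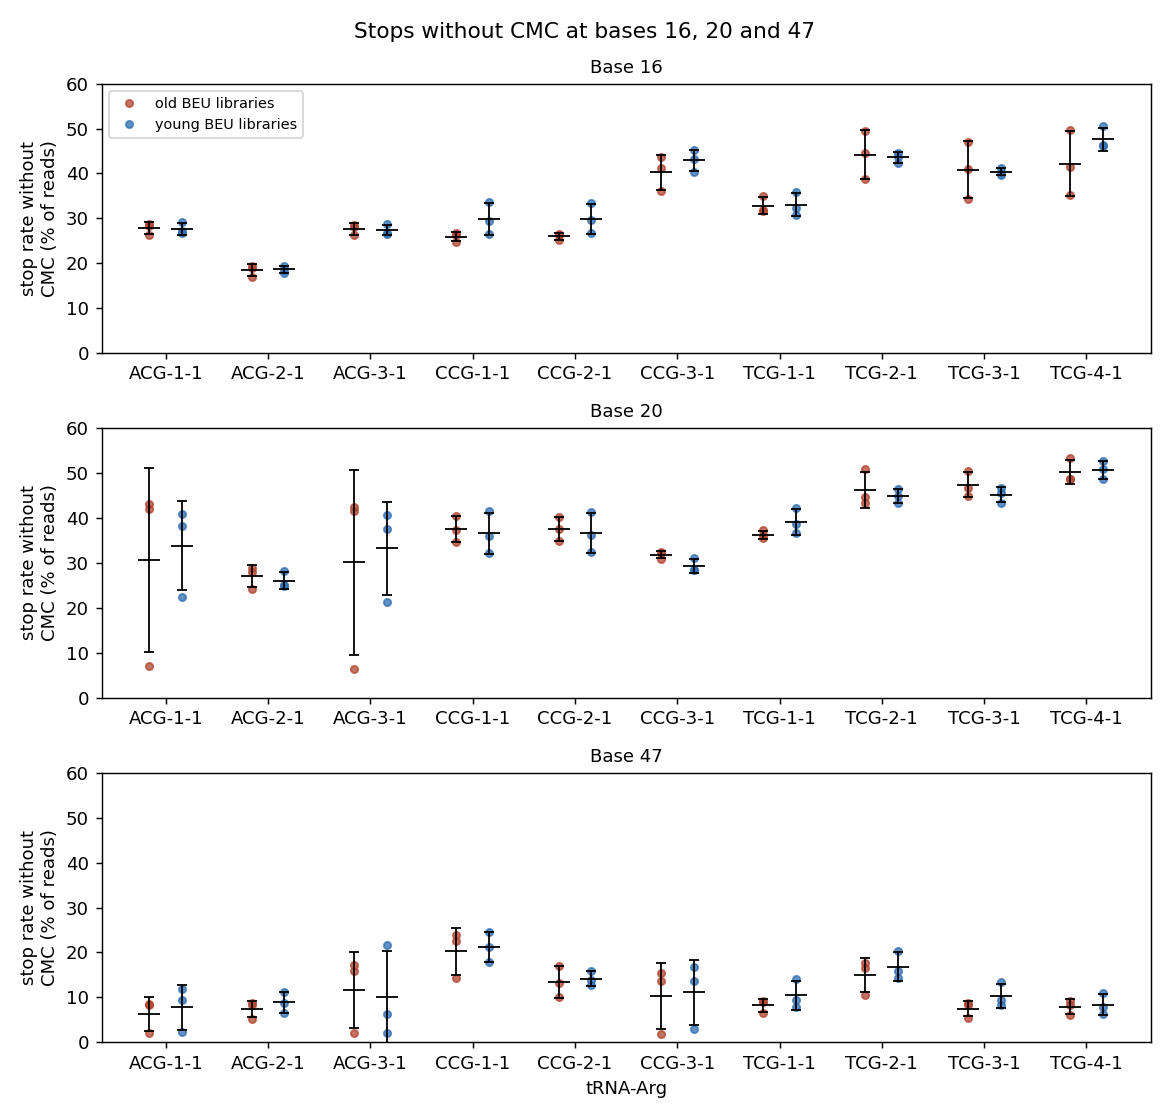
Stop rate without CMC in percent of reads (vertical axis) at bases 16, 20 and 47 of the 10 tRNAs, old BEU libraries in red left of young BEU libraries in blue. Points are libraries and black bars the mean with its SD. At base 16 TCG-4-1, with C there, stands beside TCG-3-1, and at base 20 the single low points of ACG-1-1 and ACG-3-1 at 6.32 to 7.03% in old cells are from old replicate 1.

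No BEU stop of the family was called between the ages over all tested bases. Of 60 member bases where BEU stops averaged 5% or more, 0 were called by edgeR's quasi-likelihood test (2 at an unadjusted p under 0.05), against 0% of 1190 bases in all tRNAs (69 unadjusted). Among the sites below the coverage ceiling in all 12 libraries, 2 of 50 member bases were called (4.0%), a share near the 5.6% of 893 bases of all tRNAs. Both were the middle anticodon base. C35 of CCG-3-1 stopped 3.47 ± 0.263% of reads in old and 7.83 ± 1.09% in young BEU libraries (SD, n = 3 each, adjusted p 0.000621), and C35 of CCG-1-1 stopped 3.79 ± 0.397% in old and 6.35 ± 1.08% in young ones (adjusted p 0.0254). These calls depended on which other sites were fitted. The fit over all sites used the same values of these bases, and there the lowest adjusted p of any member base was 0.503 by edgeR's quasi-likelihood test.

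No member differed in coverage between the ages by the test. Peak coverage per tRNA over the 6 BEU libraries, normalised by TMM, changed by -0.16 (ACG-2-1) to 0.40 (ACG-3-1) on the log2 scale, old over young, and 0 of the 10 were called (0 at an unadjusted p under 0.05). Of all 213 tRNAs 0% were called by edgeR's quasi-likelihood test, with 12 at an unadjusted p under 0.05, and DESeq2 called 1, which was no member. ACG-1-1, ACG-3-1 and CCG-3-1 had reached the ceiling in some of these libraries, which caps their values. ACG-3-1, for example, had 6467, 14983 and 13876 CPM (coverage scaled to a common library total) in old and 9470, 10885 and 6475 in young BEU libraries, and the lowest value of each age came from the libraries with 3 members at the ceiling. CCG-1-1, which stayed below it, had 3318, 2369 and 2417 in old and 2769, 2618 and 3221 in young libraries, overlapping between the ages.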

How the data were processed

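Demethylated small RNA was kept in BEU buffer alone or with CMC added, exposed to alkaline carbonate and sequenced as 12 libraries, per the labels' protocols. Bowtie2 2.3.5, Bowtie and mm10 are named in the submitters' processing notes, without roles. The authors deposited 6 tables, each pairing the CMC and BEU library of 1 age and number. Per the file headers, each row holds coverage (a read count), stop reads and the stop rate, a percent. The deposited stop rate equals 100 times stop reads over coverage. The sources used here do not give the rule for stop reads or for reads shared by near-identical tRNAs. No molecular identifiers are given.

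Entries did not match the names of the gene table used here, so no genome coordinates are given. The row for full-length reads was left out. Rows were numbered by anticodon and T loop in 372 of 404 entries. In the 10 tRNAs, row and usual number are equal up to 16 and from 26 on, and bases between are given by row.

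Stop and read-through counts of all tRNAs were fitted with edgeR 4.0.16 in R 4.3.3 (quasi-likelihood, a coefficient per library, 4 group log odds, no trend). The age test is the interaction in this fit. BEU stops were compared in the same fit, and abundance by TMM on BEU libraries. SDs are over 3 pairs or libraries. The tests were run on simulated data with known changes. Deviations of same-numbered CMC and BEU libraries correlated at -0.141 to 0.0440, so the numbers were not taken as evidence of a shared origin and no block was fitted. They serve to match a CMC with a BEU library when a rise, its SD or an overlap is computed. Named were T54 and T55 of each member, each called site, the 3 highest and 3 lowest age differences, each member's highest BEU stop, the anticodon bases of the best-covered member of each anticodon, and each member's abundance. T47, T50 and base 16 in other members, and C35, were added after their values were seen. The members, lists and tests were chosen with earlier results of these data known. Alternatives included limma 3.58.1 on log2 odds and DESeq2 1.42.0 for abundance.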

Additional observations from a re-analysis of the deposited data

How the results depend on the processing

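Called T sites of the family numbered 22 (old) and 21 (young) below the coverage ceiling, 24 and 24 at a coverage minimum of 50, 34 and 33 at 10, 47 and 46 with all deposited entries, and 29 and 25 with a minimum rise of 20 points. Leaving out 1 pair gave 31 to 35 in old and 31 to 33 in young cells. Requiring every CMC library above every BEU library of the age, whatever their numbers, an alternative chosen after seeing the data, left 32 and 31. With the replicate number as a block they were 32 and 31, and of the member sites named above only C50 of ACG-1-1 lost its call. The age difference was called at 0 to 1 member sites over the leave-outs, the 1 being T54 of ACG-3-1 without old replicate 1, where 4 of 441 sites of all tRNAs were called. In that leave-out every young BEU library and no old one was at the coverage ceiling at this base. BEU stops called with age numbered 2 below the ceiling, where fewer bases were tested, and 0 under the other alternatives run. Abundance called 0 members under every alternative run. Of 946 comparisons of the named rises with alternatives, 932 kept direction and side of the threshold. Calls near 10 points moved: T54 of TCG-4-1 in old cells was lost with 1 subtracted (8.32 points), and T54 of TCG-3-1 and TCG-4-1 in young cells was gained without young replicate 2 (10.7 and 10.8 points). T54 of CCG-1-1 in old cells was gained without old replicate 1 (10.1 points), and T39 of ACG-3-1 in old cells was lost with 1 subtracted (9.64 points). Of 386 age differences compared, 37 changed sign, none of them called. Coverage limits the 5′ bases of the CCG and TCG tRNAs, and the ceiling limits the bases of ACG-1-1, ACG-3-1 and CCG-3-1 3′ of the point where it was reached.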
